A study of Mus musculus with 6 samples.

Results

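The S100 genes encode small calcium-binding proteins of the EF-hand superfamily. The 10 genes S100a1, S100a4, S100a6, S100a8, S100a9, S100a10, S100a11, S100a13, S100a14 and S100a16 were taken by gene symbol from a table of 48820 mouse gene identifiers, and all 10 were found in it. Expression was measured by RNA-seq in spheroids of 4T1, a mouse triple-negative breast cancer line grown as three-dimensional aggregates in RPMI medium with fetal bovine serum. There were 3 libraries labelled LATS1/2 double-knockout (dKO) and 3 labelled WT, and the study asked how spheroid expression differs when the Hippo pathway kinases LATS1 and LATS2 are knocked out. Both groups derive from the same parental line, and the labels, which number the libraries as biological replicates, do not say whether the dKO line is 1 clone or whether each library is a separate culture. The p-values therefore reflect only how far these samples differ from each other, and that spread could be technical.

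Most S100 proteins form dimers that expose a hydrophobic surface when calcium binds, and through that surface they dock onto partners such as annexins and nonmuscle myosin. Some are also released from cells and act on receptors such as RAGE (encoded by Ager) and TLR4. In tumours several of them, S100A4 above all, are known for their link to motility and metastasis, and S100A8 with S100A9 is best known from neutrophils.

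Total counts per library ran from 38194478 to 42486146 in dKO and from 40150225 to 49630116 in WT. Lats1 averaged 50.9 ± 2.55 CPM in dKO and 153 ± 6.36 CPM in WT, while Lats2 averaged 77.9 ± 12.5 CPM in dKO and 27.2 ± 4.01 CPM in WT (SD, n = 3 each). Lats2 RNA was thus higher in the libraries labelled as its knockout. Counts per gene cannot show a small deletion, so these values do not settle the labels. Every direction given here is between libraries as labelled. Of 8 epithelial markers, 7 were tested, 3 fell, 3 rose and 1 did not pass, where 57.3% of all tested genes passed. Krt5 was at 0 in every library. The keratin gene Krt8 averaged 1116 ± 187 CPM in dKO and 1636 ± 150.3 CPM in WT, and Epcam averaged 288 ± 15.7 CPM in dKO and 795 ± 20.6 CPM in WT. Cdh1, Krt19 and Krt14 were the 3 that rose, with Cdh1 at 861 ± 55.6 CPM in dKO and 412 ± 14.6 CPM in WT. On the second principal component WT 2 and dKO 3 stood away from their own groups, and values without them are given beside the results that move. Leaving out both takes 1 library from each group of 3. As they were picked from these same data, this can narrow the spread within groups. An adjusted p without them is therefore not comparable with that of the main fit. CPM denotes counts scaled for library size with TMM factors, and a fold change is the log2 difference of dKO minus WT with its standard error (SE).

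Of the 10 genes, 8 were counted well enough to be tested, 7 of them fell in dKO, 1 rose, and S100a8 and S100a9 were at or near 0. A gene was called when its edgeR adjusted p was under 0.05. Calls were common in this comparison, with 57.3% of 15807 tested genes called, 28.7% lower and 28.6% higher in dKO. The libraries of the groups did not overlap for any of the 8 genes, where 65.6% of all tested genes showed no overlap. A called change of at least 2-fold was fitted for 5 of them, against 26.1% of all tested genes, and all 5 were falls, against 14.0% of all tested genes. The median log2 fold change was -1.57 over these 8 genes and -0.0050 over all tested genes. The lowest count of any of the 8 in any library was 23, above the floor of 12 counts used for genes near 0.

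**Figure D1:**
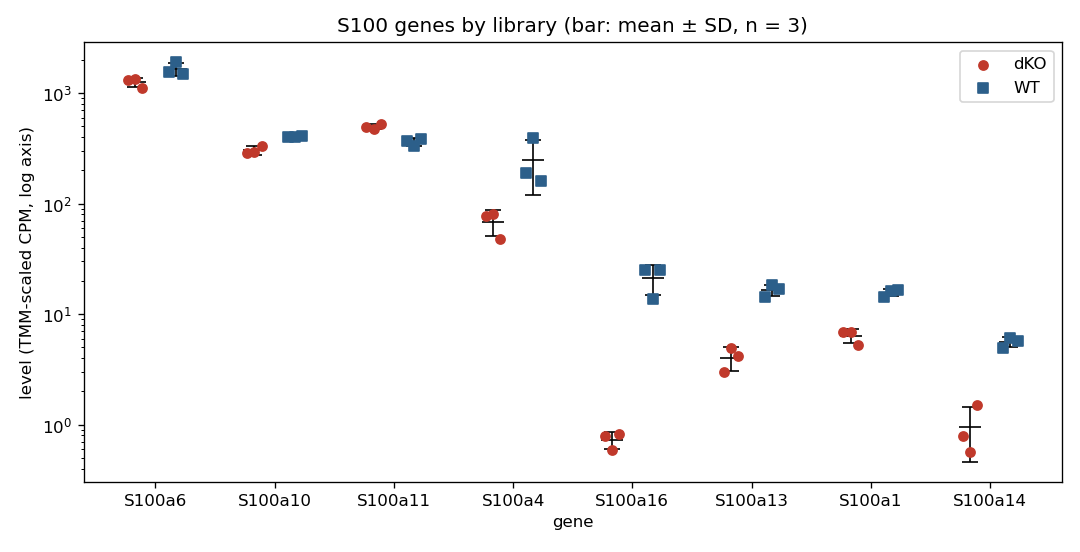
Levels of the 8 tested S100 genes in TMM-scaled CPM on a log axis, by gene, with 3 dKO libraries (circles) left of 3 WT libraries (squares) and bars for the mean ± SD. S100a16 sits between 0.590 and 0.815 CPM in dKO and between 13.8 and 25.1 CPM in WT, and S100a11 is the gene whose dKO libraries lie above the WT libraries.

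S100a16 showed the largest fitted fall of the 8. S100a16 is a broadly expressed family member studied in adipocyte differentiation and in epithelial cancers, and its gene (ENSMUSG00000074457) lies on the plus strand of GRCm38 chromosome 3, 90537254 to 90543151. It was counted at 0.785, 0.590 and 0.815 CPM in dKO 1, dKO 2 and dKO 3, against 24.8, 13.8 and 25.1 CPM in WT 1, WT 2 and WT 3. WT 2 was lower than the other WT libraries, and the lowest WT library was still far above every dKO library. The log2 fold change was -4.86 ± 0.30 (edgeR adjusted p = 1.97e-06), a 29.0-fold difference.

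S100a1, S100a13 and S100a14 all lie on the lower-coordinate side of S100a16, and the 4 genes span 32.1 kb. S100a14 (ENSMUSG00000042306, plus strand, 90526856 to 90528837) encodes an epithelial S100 protein that can act as a RAGE ligand. Its levels were 0.785, 0.565 and 1.51 CPM in dKO 1, dKO 2 and dKO 3, and 4.99, 6.05 and 5.76 CPM in WT 1, WT 2 and WT 3. It was low in all libraries, with counts of 23 to 65 in dKO and 244 to 267 in WT, and its log2 fold change was -2.54 ± 0.38 (edgeR adjusted p = 0.000408). dKO 3 was the highest dKO library, and without it the log2 fold change was -3.05. S100a13 (ENSMUSG00000042312, plus strand, 90514435 to 90524581) takes part in the release of FGF1 and interleukin-1 alpha outside the classical secretory route. Its levels were 2.98, 4.91 and 4.17 CPM in dKO 1, dKO 2 and dKO 3, and 14.3, 18.2 and 16.7 CPM in WT 1, WT 2 and WT 3. Every dKO library was below every WT library, with a log2 difference of -2.03 ± 0.21 (edgeR adjusted p = 4.70e-05).

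S100a1 (ENSMUSG00000044080, minus strand, 90511034 to 90514392) encodes a regulator of calcium handling best known from heart muscle. Its levels were 6.96, 6.90 and 5.28 CPM in dKO 1, dKO 2 and dKO 3, and 14.3, 16.3 and 16.5 CPM in WT 1, WT 2 and WT 3. The groups did not overlap, and the log2 fold change was -1.30 ± 0.16 (edgeR adjusted p = 0.000153). S100a1 and S100a13 are transcribed away from each other, with 42 bases between their annotated starts. The ratio of S100a1 to S100a13, per kb of exons, was 2.40, 1.45 and 1.31 in dKO 1, dKO 2 and dKO 3 and 1.03, 0.918 and 1.02 in WT 1, WT 2 and WT 3. The mean log2 ratio differed by 0.75 between dKO and WT (exact permutation p = 0.1, two-sided, the smallest that 3 against 3 libraries allow).

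The promoters of these genes are shown because they belong to the gene with the largest fall (S100a16) and to the divergent pair (S100a1 and S100a13). RefSeq windows on GRCm38.p6, 250 bases before to 50 after a start, matched 8 of the 10 genes and gave 9 windows, with S100a10 and S100a14 unmatched. The S100a13 window, chr3:90514185-90514484 on the plus strand, shares 204 bases with that of S100a1, so 1 sequence shows most of both. S100a16 has windows at chr3:90537004-90537303 and chr3:90540896-90541195, both on the plus strand. Capitals mark matches, on either strand, to core letters of TEAD (GGAATG), AP-1 (TGANTCA) and C/EBP (TTNNGNAA) motifs.
S100a13: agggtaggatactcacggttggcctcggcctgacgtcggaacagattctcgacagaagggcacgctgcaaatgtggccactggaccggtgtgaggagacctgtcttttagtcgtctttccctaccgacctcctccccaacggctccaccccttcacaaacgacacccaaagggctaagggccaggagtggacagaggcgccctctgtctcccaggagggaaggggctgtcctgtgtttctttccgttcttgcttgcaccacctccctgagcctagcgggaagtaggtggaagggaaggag
S100a16 window 1: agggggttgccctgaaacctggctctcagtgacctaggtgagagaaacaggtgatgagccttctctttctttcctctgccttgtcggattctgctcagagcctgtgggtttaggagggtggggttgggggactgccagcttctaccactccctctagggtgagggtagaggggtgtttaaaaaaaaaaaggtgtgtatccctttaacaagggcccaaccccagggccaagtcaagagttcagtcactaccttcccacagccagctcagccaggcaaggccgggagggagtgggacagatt
S100a16 window 2: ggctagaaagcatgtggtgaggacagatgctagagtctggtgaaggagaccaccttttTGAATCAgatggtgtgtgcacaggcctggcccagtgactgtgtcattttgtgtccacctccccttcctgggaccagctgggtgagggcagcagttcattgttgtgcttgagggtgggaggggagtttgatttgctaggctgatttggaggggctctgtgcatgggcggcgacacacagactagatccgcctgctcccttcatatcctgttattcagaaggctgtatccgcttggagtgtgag
TEAD factors are the DNA-binding partners of YAP and TAZ, which LATS kinases restrain, and AP-1 factors often bind near them. The TEAD letters were in none of the 9 windows, against 14.7% of 32851 promoter windows in the RefSeq table. The S100a13, S100a1 and first S100a16 windows held none of the 3 motifs. The second S100a16 window held 1 AP-1 match, 192 bases before the start, and AP-1 letters were in 7.81% of all windows. A match is a run of letters and not a shown binding site.

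S100a4, whose protein binds nonmuscle myosin IIA and is known as metastasin and as a fibroblast marker, fell with a wide spread. Its gene (ENSMUSG00000001020, plus strand, 90603771 to 90606045) overlaps Gm42674 on the same strand, which was at 0 counts in every library. S100a4 was at 77.2, 81.1 and 47.9 CPM in dKO 1, dKO 2 and dKO 3, against 189, 393 and 159.6 CPM in WT 1, WT 2 and WT 3. WT 2 was far above the other WT libraries and dKO 3 below the other dKO libraries, yet the groups did not overlap. The log2 fold change was -1.85 ± 0.41 (edgeR adjusted p = 0.0112), and -1.14 without WT 2 and dKO 3 (edgeR adjusted p = 6.70e-07). The smaller p came with a smaller difference and is not stronger evidence, as those libraries were picked from these same data.

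Markers of fibroblasts were set beside S100a4. Of 12 markers, 5 were tested, 3 fell and 2 rose, where 57.3% of all tested genes were called. In every library 4 of the 12 were at or under the floor. The summed level of the 12 markers was 11.7 to 12.9 CPM in dKO and 41.7 to 67.1 CPM in WT. Pdgfra, a growth factor receptor gene, averaged 2.40 ± 0.554 CPM in dKO and 38.2 ± 8.53 CPM in WT, and Col1a1, a collagen gene, averaged 2.46 ± 0.682 CPM in dKO and 12.1 ± 3.15 CPM in WT. The 2 that rose were Postn, the periostin gene, at 6.14 ± 0.885 CPM in dKO and 0.433 ± 0.482 CPM in WT, and Col1a2, a collagen gene, at 0.718 ± 0.223 CPM in dKO and at or under the floor in every WT library. Col1a2 passed the count filter only through the dKO libraries. Pi16, among the 3 that fell, passed it only through the WT libraries, so that filter set the direction of both genes. Lum, Thy1 and Dpt were at 0 in every library, and Dcn averaged 0.0246 CPM in dKO and 0.139 CPM in WT. The part of such cells in the S100a4 result was not tested, and in bulk RNA fewer cells of a type and less RNA per cell cannot be told apart. Within WT the marker sum was lowest in WT 2, at 41.7 CPM, of which Pdgfra was 28.6 CPM. S100a4 was highest in WT 2, and whether its level follows these markers was not tested.

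S100a6, S100a10 and S100a11 were the most abundant of the family with S100a4, and each changed by less than 1.5-fold. S100a6 (calcyclin, a partner of annexin A11 and of the calcyclin-binding protein; ENSMUSG00000001025, plus strand, 90612882 to 90624181) was at 1305, 1340.1 and 1122 CPM in dKO 1, dKO 2 and dKO 3. In WT 1, WT 2 and WT 3 it was at 1568, 1897 and 1498 CPM. The highest dKO library was below the lowest WT library, with a log2 difference of -0.40 ± 0.11 (edgeR adjusted p = 0.0111) that was -0.21 without WT 2 and dKO 3.

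S100a10 (p11, the partner of annexin A2 that does not itself bind calcium; ENSMUSG00000041959, plus strand, 93555080 to 93564643) was at 286, 291 and 335 CPM in dKO 1, dKO 2 and dKO 3, against 403, 401 and 408 CPM in WT 1, WT 2 and WT 3. The WT libraries were tightly grouped and all above dKO. Its log2 fold change was -0.41 ± 0.08 (edgeR adjusted p = 0.00155). S100a11 (a partner of annexin A1 in membrane repair; ENSMUSG00000027907, plus strand, 93520488 to 93526287) was the 1 gene of the 8 that rose. It was at 493, 476 and 530.3 CPM in dKO 1, dKO 2 and dKO 3, against 368, 331 and 387 CPM in WT 1, WT 2 and WT 3. Every dKO library was above every WT library, with a log2 difference of 0.47 ± 0.08 (edgeR adjusted p = 0.000970). When tested against a 1.5-fold change in place of no change, none of S100a6, S100a10 and S100a11 was called (edgeR glmTreat adjusted p of 1.00 for each), while 5 of the 8 were, against 28.8% of all tested genes.

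**Figure D2:**
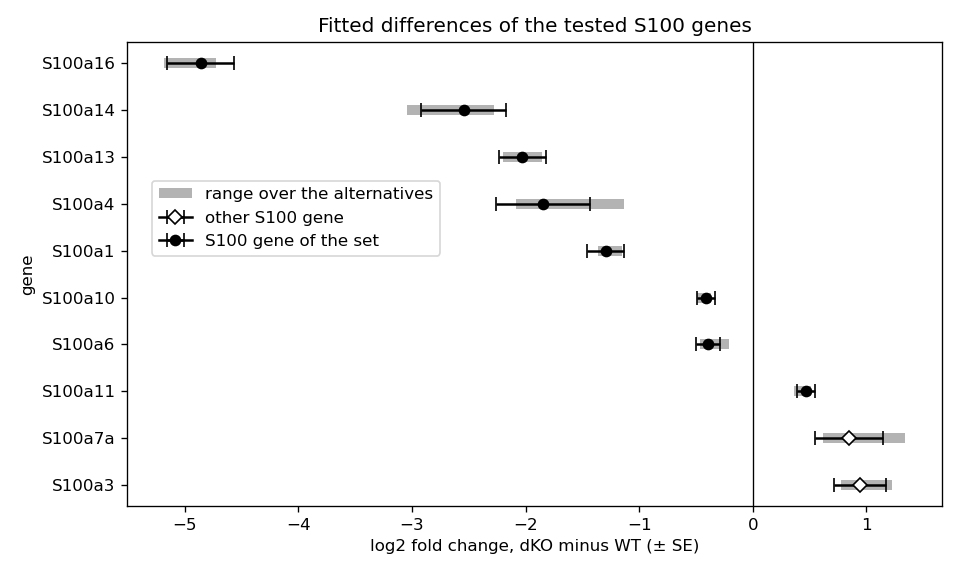
Fitted log2 fold changes, dKO minus WT, of the 8 tested genes of the set (filled circles) and of S100a7a and S100a3 (open diamonds), with bars for the SE and grey bands for the range over 15 alternative settings. S100a16 is at -4.86 and S100a11 at 0.47, and no band crosses 0.

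The S100a11 promoter is shown as that of the only gene of the 8 that rose, at chr3:93520246-93520545 on the plus strand, with the capitals as above.
S100a11: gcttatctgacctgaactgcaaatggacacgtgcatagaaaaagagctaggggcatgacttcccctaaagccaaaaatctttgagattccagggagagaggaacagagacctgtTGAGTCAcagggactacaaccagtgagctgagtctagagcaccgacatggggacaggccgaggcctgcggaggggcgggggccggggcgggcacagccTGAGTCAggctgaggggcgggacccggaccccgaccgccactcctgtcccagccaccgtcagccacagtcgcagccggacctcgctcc
It held the AP-1 letters TGAGTCA at 2 places, 136 and 38 bases before the start. No other window of the set but the second of S100a16 held AP-1 letters.

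Per kb of merged exons, S100a11, S100a6, S100a10 and S100a4 made up nearly all of the family's RNA. In dKO, S100a11 stood at 978 ± 54.4 CPM per kb and S100a6 at 919 ± 85.8 CPM per kb, levels whose spreads overlapped. S100a10 followed at 251 ± 22.4 and S100a4 at 118 ± 31.1 CPM per kb. In WT, S100a6 came first at 1210.3 ± 156 CPM per kb, then S100a11 at 708 ± 55.1, with S100a4 at 423 ± 217 and S100a10 at 334 ± 3.05 CPM per kb not apart beyond their spread. The remaining genes were low in both groups, with S100a1 at 9.20 ± 1.37 CPM per kb in dKO and 22.6 ± 1.76 in WT, and S100a13 at 5.62 ± 1.36 in dKO and 23.0 ± 2.75 in WT. S100a14 and S100a16 were both below 1 CPM per kb in every dKO library, and in WT they stood at 3.24 ± 0.318 and 13.2 ± 3.98 CPM per kb.

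The family's summed level was 2281 ± 42.6 CPM per kb in dKO and 2738 ± 316 CPM per kb in WT, so that dKO held 83.3% of the WT sum (exact permutation p = 0.1, two-sided, the smallest possible). WT 2 had the highest sum at 3101 CPM per kb, and the percentage was 89.2% without it. The share of S100a11 in the sum was 42.9 ± 3.20% in dKO and 26.2 ± 4.73% in WT. The share of S100a4 was 5.14 ± 1.28% in dKO and 15.0 ± 5.85% in WT, and the share of S100a6 was 40.2 ± 3.04% in dKO and 44.2 ± 0.744% in WT. With the longest coding transcript as the length, chosen after the values were seen, S100a6 came first in both groups and the dKO sum was 79.8% of the WT sum. The shares depended on the length. With that length S100a11 held 29.7% in dKO and 17.4% in WT. S100a4 then held 4.17% in dKO and 11.7% in WT, and S100a6 held 52.1% in dKO and 54.8% in WT.

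S100a8 and S100a9 encode the subunits of calprotectin, the metal-binding protein complex that fills the cytosol of neutrophils and acts on TLR4 and RAGE when released. S100a9 (ENSMUSG00000056071, minus strand, 90692632 to 90695721) had 0 counts in all 6 libraries. S100a8 (ENSMUSG00000056054, plus strand, 90668978 to 90670035) had 0 counts in every dKO library and 9, 11 and 4 counts in WT 1, WT 2 and WT 3. All of these are under the floor of 12 counts, or 0.243 to 0.314 CPM per library, so no fold is given and both genes fell below the count filter. Without that filter S100a8 was called lower in dKO (edgeR adjusted p = 0.0482), a call that rests on at most 11 counts per library.

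Neutrophil markers were scarce too, and their part in the S100a8 counts was not tested. Of 12, 2 were tested, 1 fell and 1 rose, where 57.3% of all tested genes were called. Each passed the count filter only through the group where it was counted, so that filter set its direction. In every library 9 were at or under the floor, Ly6g, Ngp, Csf3r, Retnlg and Mmp8 at 0 in all of them, and the summed level was 0.445 to 0.559 CPM in dKO and 1.93 to 2.78 CPM in WT. Most of the WT sum was Ltf, the lactoferrin gene, at 1.85, 2.73 and 1.72 CPM in WT 1, WT 2 and WT 3 and at 0 in every dKO library. Itgam, an integrin gene of myeloid cells, was the 1 that rose, with 13, 13 and 20 counts in dKO 1, dKO 2 and dKO 3 and 0 counts in every WT library. Ptprc, the pan-leukocyte marker, was at 0.105, 0.418 and 0 CPM in dKO 1, dKO 2 and dKO 3 and at 0 in every WT library. Of 11 macrophage and leukocyte markers, 2 were tested and rose, where 57.3% of all tested genes were called, and 7 were at or under the floor. The 7 were Lyz2, Mrc1, C1qa, C1qb, Cx3cr1, Tyrobp and Fcer1g. The summed level of the 11 was 76.8 to 209 CPM in dKO and 3.54 to 16.5 CPM in WT, and most of the dKO sum was Csf1r alone. Csf1r, the CSF1 receptor gene, was at 188, 189.6 and 62.7 CPM in dKO 1, dKO 2 and dKO 3 and 3.55, 14.2 and 1.01 CPM in WT 1, WT 2 and WT 3. The fitted log2 difference of Csf1r was 4.58 (edgeR adjusted p = 0.0183), and 5.99 without WT 2 and 6.35 without WT 2 and dKO 3, while the call was lost without WT 1 (edgeR adjusted p = 0.0669). Cd68, a lysosomal gene, averaged 15.6 ± 1.80 CPM in dKO and 2.15 ± 0.207 CPM in WT. Adgre1, a macrophage marker, stood at 2.12 CPM in dKO 1 and 2.53 CPM in dKO 2 and had 0 counts in the other 4 libraries. S100a8 and S100a9 were at 0 counts in every dKO library, and their relation to these markers was not tested.

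Genes that regulate or accompany calprotectin in other settings moved in both directions. Of 12 listed, 9 were tested, 4 fell, 2 rose and 3 did not pass, where 57.3% of all tested genes were called. The median of the 9 was -0.61 on the log2 scale. Cebpb, a C/EBP factor gene that activates inflammatory genes, averaged 86.3 ± 23.2 CPM in dKO and 225 ± 15.6 CPM in WT, a log2 difference of -1.38 ± 0.17 (edgeR adjusted p = 0.000208). Stat3, the transcription factor gene downstream of interleukin-6, averaged 77.2 ± 1.35 CPM in dKO and 118 ± 5.55 CPM in WT. Csf3, the gene of the neutrophil growth factor G-CSF, averaged 10.6 ± 1.48 CPM in dKO and 99.0 ± 6.13 CPM in WT. Lcn2, the lipocalin gene often induced with calprotectin, was at 0.471, 1.70 and 4.35 CPM in dKO 1, dKO 2 and dKO 3 and at 327, 290.2 and 374 CPM in WT 1, WT 2 and WT 3. It was named after its values were seen, and its log2 fold change was -7.22 ± 0.70 (edgeR adjusted p = 0.000578), and -8.23 without dKO 3. The 2 that rose were Cebpd, also a C/EBP factor gene, at 5.06 ± 1.77 CPM in dKO and 1.90 ± 0.468 CPM in WT, and Spi1, a myeloid transcription factor gene, with 15, 29 and 13 counts in dKO 1, dKO 2 and dKO 3 and 0 counts in every WT library. Spi1 passed the count filter only through the dKO libraries, so that filter set its direction. Among the 9 windows of the set, only those of S100a8 and S100a9 held the C/EBP letters, which 40.7% of all windows hold. Outside the set, window 1 and window 4 of S100a3 held them too.

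Other S100 genes were few among the tested genes. Of 14 other S100 and S100-fused genes, such as the filaggrin family, 3 were tested, 2 rose and 1 did not pass. Of all tested genes 57.3% were called, and 10 of the 14 were at or under the floor. S100a3, a gene known from the hair cuticle, was at 10.3, 7.94 and 6.82 CPM in dKO 1, dKO 2 and dKO 3, against 3.75, 5.23 and 4.01 CPM in WT 1, WT 2 and WT 3. The groups did not overlap, and the log2 fold change was 0.95 ± 0.23 (edgeR adjusted p = 0.00666), and 1.23 without WT 2 and dKO 3. S100a3 overlaps S100a2, Gm23464 and Gm42674, so read assignment there is uncertain. S100a7a, a mouse relative of the human antimicrobial gene for psoriasin, was at 11.4, 11.3 and 7.14 CPM in dKO 1, dKO 2 and dKO 3, against 5.29, 7.64 and 3.66 CPM in WT 1, WT 2 and WT 3. Here dKO 3 was below WT 2, so the groups overlapped. The log2 fold change was 0.85 ± 0.30 (edgeR adjusted p = 0.0353), and the call was lost without dKO 1, dKO 2, WT 1 or WT 3, each left out alone (edgeR adjusted p of 0.110, 0.110, 0.0972 and 0.101). Without WT 2 and dKO 3 together the log2 fold change of S100a7a was 1.34 (edgeR adjusted p = 0.000365). Tchh, the trichohyalin gene, which also counts among the neighbours, was at 0.733, 0.958 and 0.163 CPM in dKO 1, dKO 2 and dKO 3 and at 0.284, 0.0744 and 0 CPM in WT 1, WT 2 and WT 3, and did not pass (edgeR adjusted p = 0.0979), but was called without WT 1 (edgeR adjusted p = 0.0439).

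The S100a7a window is shown, chosen after its values were seen, because it held the TEAD letters 3 times, 171, 164 and 85 bases before the start. It lies at chr3:90654052-90654351 on the plus strand.
S100a7a: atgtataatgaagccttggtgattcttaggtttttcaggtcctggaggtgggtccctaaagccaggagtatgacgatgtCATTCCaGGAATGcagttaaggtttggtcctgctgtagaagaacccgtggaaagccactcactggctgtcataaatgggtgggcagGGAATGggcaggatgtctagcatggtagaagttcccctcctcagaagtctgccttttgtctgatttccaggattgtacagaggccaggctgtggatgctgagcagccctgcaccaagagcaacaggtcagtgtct
One of the 4 windows of S100a3 also held the TEAD letters once, 179 bases before its start, and 14.7% of all windows hold them at least once.

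**Figure D3:**
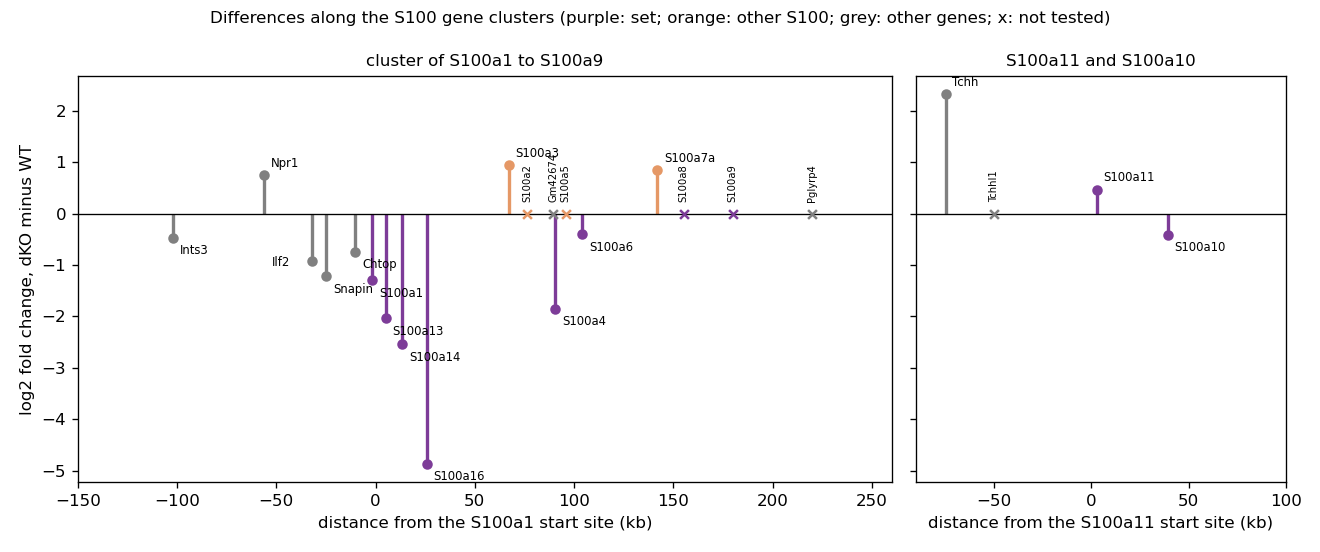
Log2 fold changes, dKO minus WT, of protein-coding genes along the S100 clusters, by the distance of a gene's midpoint in kb from the S100a1 start (left) and the S100a11 start (right), with crosses for genes not tested. S100a1, S100a13, S100a14 and S100a16 lie side by side and point down to -4.86, while S100a3 and S100a7a point up.

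Neighbours outside the family were read by the same fit. Of 27 genes outside the S100 symbols within 100 kb of the 10 genes, 6 were tested. Of the 6, 3 fell, 0 rose and 3 did not pass, where 57.3% of all tested genes were called. The median of the 6 was -0.60 on the log2 scale. Of the 21 others, 15 were at 0 in every library. Chtop, the chromatin target of PRMT1, lies 1536 bases from S100a1 and averaged 117 ± 6.86 CPM in dKO and 195 ± 14.7 CPM in WT. Snapin, a gene of vesicle trafficking, averaged 28.5 ± 1.41 CPM in dKO and 66.2 ± 3.15 CPM in WT, a log2 difference of -1.22 ± 0.09 (edgeR adjusted p = 4.44e-06). Snapin overlaps Ilf2 on the other strand, so read assignment there is uncertain. Ints3, an integrator complex gene, had a log2 difference of -0.47 ± 0.08 (edgeR adjusted p = 0.00111). Beyond the 3 that fell, Ilf2 did not pass at a log2 difference of -0.92 ± 0.39 (edgeR adjusted p = 0.0926). It was at 118, 115 and 76.6 CPM in dKO 1, dKO 2 and dKO 3 and at 145, 312 and 129 CPM in WT 1, WT 2 and WT 3, so that WT 2 was high here as it was for S100a4. Its log2 fold change was -0.41 without WT 2 and -0.24 without WT 2 and dKO 3, where it was called (edgeR adjusted p = 0.00784), as it was without WT 3 and with the replicate block (edgeR adjusted p = 0.0478 and 0.0141). Npr1, a natriuretic peptide receptor gene named after its values were seen, averaged 3.17 ± 0.737 CPM in dKO and 1.91 ± 1.32 CPM in WT and did not pass, but was called higher in dKO without WT 2, at 1.46 on the log2 scale (edgeR adjusted p = 0.00796), and without WT 2 and dKO 3, at 1.59 (edgeR adjusted p = 0.00365).

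Genes for the proteins that S100 dimers bind were read against the same background. Of 19 partner genes, 15 were tested, 8 rose, 6 fell and 1 did not pass, where 57.3% of all tested genes were called. The median of the 15 was 0.29 on the log2 scale. Among those that fell, Fgf1 and Il1a passed the count filter only through the WT libraries, so that filter set their direction. Anxa6, an annexin gene, was at 91.8, 91.7 and 91.9 CPM in dKO 1, dKO 2 and dKO 3, against 323, 299 and 327 CPM in WT 1, WT 2 and WT 3. Its log2 fold change of -1.79 ± 0.07 had the smallest adjusted p of the partner list (edgeR adjusted p = 1.32e-07). Anxa1, the annexin partner of S100A11, averaged 2064 ± 22.9 CPM in dKO and 891 ± 45.4 CPM in WT, a log2 difference of 1.21 ± 0.07 (edgeR adjusted p = 1.07e-06). Cacybp, the calcyclin-binding protein gene, averaged 176 ± 7.79 CPM in dKO and 89.2 ± 3.16 CPM in WT, a rise of 0.98 ± 0.07 on the log2 scale (edgeR adjusted p = 4.44e-06).

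Ratios within known pairs, named here after their values were seen, are given as a description. The ratio of S100a10 to Anxa2, per kb of exons, was 1.07, 1.05 and 1.10 in dKO 1, dKO 2 and dKO 3 and 1.77, 1.74 and 1.75 in WT 1, WT 2 and WT 3. S100a10 fell while Anxa2 rose by 0.29 ± 0.07 on the log2 scale (edgeR adjusted p = 0.00690), and the mean log2 ratio differed by -0.71 (dKO minus WT). The ratio of S100a11 to Anxa1 was 1.37, 1.30 and 1.47 in dKO 1, dKO 2 and dKO 3 and 2.43, 2.00 and 2.54 in WT 1, WT 2 and WT 3, since Anxa1 rose by more than S100a11. The ratio of S100a6 to Anxa11 was 95.5, 92.3 and 74.8 in dKO 1, dKO 2 and dKO 3 and 39.5, 38.9 and 45.6 in WT 1, WT 2 and WT 3, with Anxa11 at a log2 difference of -1.49 ± 0.13 (edgeR adjusted p = 2.07e-05). The ratio of S100a4 to Myh9, the nonmuscle myosin IIA heavy chain gene, was 2.01, 2.13 and 1.10 in dKO 1, dKO 2 and dKO 3 and 5.83, 13.2 and 4.91 in WT 1, WT 2 and WT 3. The ratio of S100a6 to S100a11 was 0.990, 1.05 and 0.791 in dKO 1, dKO 2 and dKO 3 and 1.59, 2.14 and 1.45 in WT 1, WT 2 and WT 3. The groups did not overlap for any of these 5 ratios, where 65.6% of all tested genes showed no overlap. The share over ratios of other gene pairs was not computed. Over the 6 ratios compared, each exact permutation p was 0.1, two-sided, the smallest possible, and 0.1 after Benjamini-Hochberg adjustment, so none could pass 0.05.

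Receptors and co-receptors of released S100 proteins were called about as often as all tested genes (57.3%). Of 10 listed, 9 were tested, 4 fell, 1 rose and 4 did not pass. The median of these tested genes was -0.0046 on the log2 scale. Ager averaged 1.10 ± 0.331 CPM in dKO and 0.942 ± 0.153 CPM in WT, and Tlr4 averaged 28.5 ± 2.07 CPM in dKO and 25.7 ± 1.09 CPM in WT (edgeR adjusted p = 0.678 and 0.246). Alcam, a cell adhesion molecule gene, was at 4.03, 5.18 and 3.21 CPM in dKO 1, dKO 2 and dKO 3, against 232, 249 and 241 CPM in WT 1, WT 2 and WT 3, a log2 difference of -5.86 ± 0.16 (edgeR adjusted p = 3.57e-08). Mcam, an adhesion molecule gene whose product binds calprotectin, averaged 129 ± 27.7 CPM in dKO and 50.5 ± 4.68 CPM in WT, a log2 difference of 1.36 ± 0.16 (edgeR adjusted p = 0.000103). Cd33, a sialic acid-binding receptor gene, was at 0, 0.172 and 0.489 CPM in dKO 1, dKO 2 and dKO 3, against 26.0, 11.7 and 20.3 CPM in WT 1, WT 2 and WT 3. Cd33 was 1 of the 4 that fell and passed the count filter only through the WT libraries, so that filter set its direction.

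Other EF-hand genes were read from the same fit. Of 21 listed, 16 were tested, 7 fell, 5 rose and 4 did not pass, where 57.3% of all tested genes were called. The median of the 16 was -0.05 on the log2 scale. Calm2, a calmodulin gene, averaged 229 ± 5.98 CPM in dKO and 425 ± 15.6 CPM in WT, a log2 difference of -0.89 ± 0.06 (edgeR adjusted p = 4.83e-06). The calpain genes Capns1 and Capn1, which encode subunits of a calcium-dependent protease, fell by 0.79 ± 0.08 and 0.84 ± 0.11 on the log2 scale (edgeR adjusted p = 3.75e-05 and 0.000212).

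**Figure D4:**
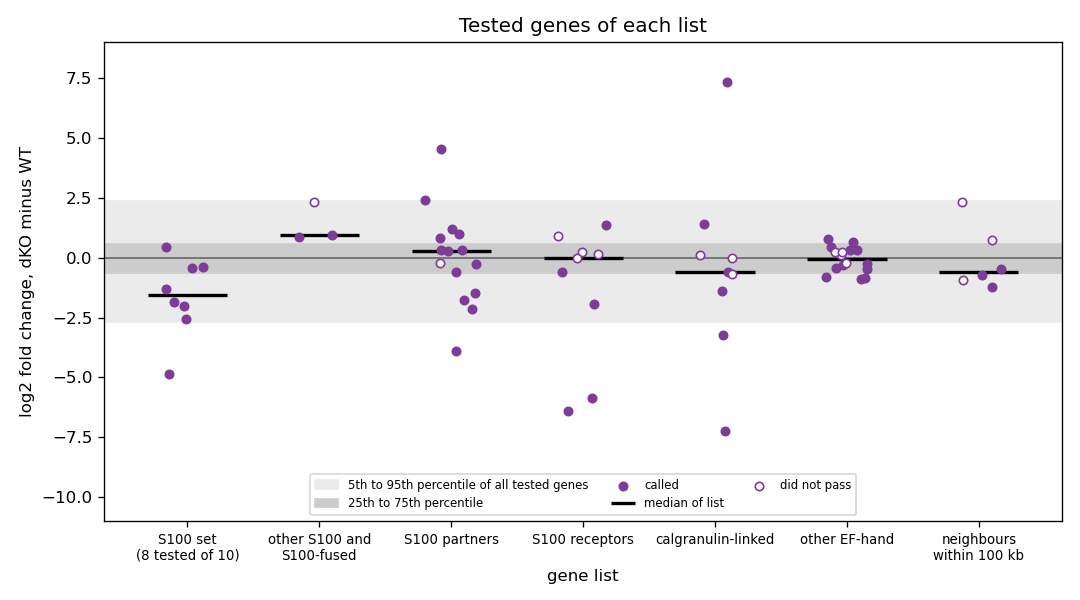
Log2 fold changes, dKO minus WT, of the tested genes of 7 lists, with filled points for called genes, open points for genes that did not pass, a black line for each list's median and grey bands for the spread of all tested genes. The median of the 8 tested genes of the S100 set is -1.57 and that of the other EF-hand genes -0.05. S100a3 and S100a7a, at 0.95 and 0.85, are plotted in the list of other S100 genes. The uppermost point is Spi1, which had 0 counts in every WT library, and the lowest is Lcn2.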

How the data were processed

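Expression was compared between 3 dKO and 3 WT libraries of 4T1 spheroids. The deposited values are estimated counts per gene, deposited by the authors as unnormalized whole numbers. The submitters' processing notes name HISAT2 2.2.1, StringTie 2.2.1 and the GRCm38 (mm10) build. Neither the counting step nor the annotation release nor strand use is stated in those sources. Genes were more often at exactly 4 counts (678 to 775 per library) than at 5 (273 to 367), so 1 read pair may give 4 counts. Genes near 0 were therefore read against a floor of 12 counts, or 3 such pairs. The floor covers counting error only. Each library's own table equalled its column of the series table in all 6 libraries.

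Symbols, positions and merged exon lengths came from GENCODE M21 (GRCm38), where 48144 of 48820 identifiers were found. The fit used edgeR 4.0.16 in R 4.3.3 with TMM normalization, the filterByExpr filter, the robust quasi-likelihood F-test, a single genotype term and Benjamini-Hochberg adjustment over all 15807 tested genes. Without strand, reads of overlapping genes cannot be told apart. The SE is approximate, taken as the size of the log2 difference over the root of F. DESeq2 1.42.0 was an alternative.

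The 10 genes and the gene lists were chosen with earlier results of these data known. The naming rule took the 10 genes, Lats1 and Lats2, fixed cell type markers, and the 3 genes with the smallest adjusted p of each list and of the neighbours. Cd68, Ltf, Lcn2, Spi1, Anxa2, Anxa11, Myh9, Ager, Tlr4, Ilf2, Npr1, Cdh1, Krt19, Krt14, Postn, Col1a2, Itgam and Cebpd were named after their values were seen. So were Pi16, Fgf1, Il1a, Lyz2, Mrc1, C1qa, C1qb, Cx3cr1, Tyrobp and Fcer1g. Protein sequences were not used here.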

Additional observations from a re-analysis of the deposited data

How the results depend on the processing

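The 9060 called genes became 4556 when tested against a 1.5-fold change, and the 8 called S100 genes became 5, since that test asks for larger changes by construction. With each library left out in turn, 8041 to 9120 genes were called, and all 8 S100 genes each time. The other alternatives (RLE normalization, DESeq2, no or a stricter count filter, a replicate block, an adjusted p under 0.01, counts divided by 4, and leaving out WT 2 and dKO 3 together) gave 7067 to 10139 genes, and 6 to 9 S100 genes; the ninth was S100a8 under DESeq2 and without a filter, and S100a4 and S100a6 were lost at 0.01. No S100 gene changed direction. The 10139 came from leaving out WT 2 and dKO 3, which were picked from these same data, and does not show stronger evidence. Same-numbered libraries did not deviate together, with correlations of -0.06, 0.05 and 0.08, so the numbers were not taken as pairs; with the replicate block 8658 genes and all 8 S100 genes were called. The calls of S100a14 and S100a16 rest on at most 65 counts per dKO library, which limits the precision of their fold changes.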
